A study of Mus musculus with 23 samples.

Results

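The imprinted growth-control genes followed here were 10 genes: the imprinted zinc-finger genes *Zim1*, *Peg3* and *Plagl1*, the long non-coding RNAs *H19* and *Meg3*, the growth factor *Igf2*, the Notch ligand family member *Dlk1*, the cyclin-dependent kinase inhibitor *Cdkn1c*, and *Mest* and *Ndn*. They were chosen by gene symbol as known members of the imprinted network of fetal growth, with *Zim1* as the neighbour of *Peg3*, and all 10 were found among the 18512 symbols counted. Earlier results of these data were known at the time of the choice. The authors had listed *Zim1* among their top genes raised 1 week after injury, so its rise here is not independent of the choice. The question was how the transcripts of this set stood in the pancreas 1 and 2 weeks after an acute pancreatitis. RNA-seq had been performed on the head of the pancreas of 23 C57BL/6 mice of 6 to 8 weeks of age: 8 non-injured mice at baseline (BL, 4 females and 4 males), 8 mice at day 7 (4 females and 4 males) and 7 mice at day 14 (3 females and 4 males). Injured mice had received caerulein, a cholecystokinin analogue that overstimulates acinar cells, at 50 µg/kg in 8 hourly intraperitoneal injections on each of 2 consecutive days. The age is the one given for the mice used for caerulein, and no ages at sampling were given. A difference in age between time points could thus not be told apart from recovery time. All mice carried the same inbred background and no transgene, so the maternal and paternal alleles could not be separated and imprinting itself was not measured. Each time point was a different set of mice, and whole tissue rather than sorted cells was sequenced.

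Genomic imprinting is the silencing of a gene on the copy inherited from the mother or on the copy inherited from the father. Many imprinted genes act on growth before birth, when paternally expressed genes tend to promote growth and maternally expressed genes tend to restrain it. Several belong to a network that is abundant in the fetus and falls in most organs after birth. In the adult pancreas, *Cdkn1c* and the Dlk1-Meg3 region are best known from the endocrine islet, a small fraction of a tissue that is mostly acinar.

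Each library held between 7059890 and 9567446 counts, and the 9 acinar markers examined summed to between 1730000 and 4430000 normalized counts per mouse. The tissue label was thus matched by its defining markers, none of which was at 0. The 20 most abundant genes took 66.4% to 71.2% of the counts at BL, 55.3% to 62.8% at day 7 and 63.9% to 66.2% at day 14. A normalized count is a count divided by the library's size after TMM scaling (trimmed mean of M-values, which sets aside the most abundant and most changed genes), on the scale of a library of 8699743 counts. The smallest number of counts taken as detectable was 3, which was 1.95 to 4.54 normalized counts depending on the mouse and covers counting error only. A gene passed where its p from the quasi-likelihood test of edgeR, adjusted over all 12195 genes tested, was at most 0.05, and it was called a DEG where it also changed at least 1.5-fold.

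*Zim1* and *Peg3* lie side by side on mouse chromosome 7 and are transcribed from the same strand, with 7.44 kb between them (GRCm38, GENCODE vM21: Zim1 at chr7:6671269-6696450, Peg3 at chr7:6703892-6730431). *Peg3* is expressed from the paternal copy and *Zim1* from the maternal copy, and both encode proteins with zinc fingers of the kind that bind DNA. The next gene, *Usp29*, starts 146 bases beyond *Peg3* on the opposite strand. *Meg3* is on chromosome 12 (chr12:109541001-109571726), *Mest* on chromosome 6 (chr6:30723547-30748465) and *Plagl1* on chromosome 10 (chr10:13060504-13131694). The 250 bases before the transcription start are given here for the genes that passed at day 7 and for which RefSeq lists a promoter (GRCm38.p6). They are printed 5′ to 3′ on the strand of the gene, and where RefSeq lists several starts the one with the most CpG dinucleotides is given (the first of equal ones). Capitals mark the motifs searched on both strands: the GC box GGGCGG, the TATA box TATAAA, the cyclic AMP response element TGACGTCA, the YY1 core GCCATNTT, and GGGGCC, a run of the kind that the Plagl1 protein binds.
Zim1 chr7:6696433-6696682 (minus strand): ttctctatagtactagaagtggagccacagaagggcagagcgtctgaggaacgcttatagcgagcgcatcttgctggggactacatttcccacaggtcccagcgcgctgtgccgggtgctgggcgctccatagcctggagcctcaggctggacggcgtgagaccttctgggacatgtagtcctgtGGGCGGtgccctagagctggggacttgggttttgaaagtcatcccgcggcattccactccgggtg
Peg3 chr7:6730420-6730669 (minus strand): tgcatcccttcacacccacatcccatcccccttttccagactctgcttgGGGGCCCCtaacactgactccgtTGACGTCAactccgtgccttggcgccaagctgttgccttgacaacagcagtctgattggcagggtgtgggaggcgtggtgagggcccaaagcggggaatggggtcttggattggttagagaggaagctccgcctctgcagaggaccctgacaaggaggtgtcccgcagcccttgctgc
Meg3 chr12:109540746-109540995 (plus strand): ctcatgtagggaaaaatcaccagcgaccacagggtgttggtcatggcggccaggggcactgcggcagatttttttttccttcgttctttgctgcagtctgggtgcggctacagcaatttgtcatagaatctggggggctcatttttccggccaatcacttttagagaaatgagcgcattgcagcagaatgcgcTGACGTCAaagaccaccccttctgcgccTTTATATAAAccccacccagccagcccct
Mest chr6:30737800-30738049 (plus strand): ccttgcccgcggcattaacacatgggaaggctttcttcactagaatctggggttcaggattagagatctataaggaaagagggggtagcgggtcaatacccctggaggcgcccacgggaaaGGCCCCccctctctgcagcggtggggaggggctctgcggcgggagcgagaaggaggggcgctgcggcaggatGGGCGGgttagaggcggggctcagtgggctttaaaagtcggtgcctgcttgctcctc
Plagl1 chr10:13090582-13090831 (plus strand): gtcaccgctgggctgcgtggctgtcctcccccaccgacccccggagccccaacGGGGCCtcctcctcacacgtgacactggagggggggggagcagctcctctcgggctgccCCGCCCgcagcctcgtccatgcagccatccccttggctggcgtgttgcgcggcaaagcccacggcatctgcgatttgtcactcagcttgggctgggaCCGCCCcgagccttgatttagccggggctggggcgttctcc

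In windows of 300 bases, from 250 before to 50 after the start, *Plagl1* had 26 CpG dinucleotides, *Zim1* 20, *Mest* 17, and *Peg3* and *Meg3* 13 each. The median over the 32851 windows in the table was 7, with quartiles of 3 and 20. The windows of *Meg3* and *Mest* were picked for their CpG, so their counts cannot be set against that median. Another start of *Meg3* had 1 CpG and another start of *Mest* had 8. The motif matches of both genes below are also those of the picked windows. TGACGTCA was in the windows of *Peg3*, beginning 178 bases before the start, and of *Meg3*, beginning 57 bases before it, and 1.79% of all windows held it. The *Meg3* window alone among the 5 shown had a TATAAA, found on each strand in overlapping positions, against 13.6% of all windows. GGGCGG was in those of *Zim1*, *Mest* and *Plagl1* (35.7% of all windows), and GGGGCC in those of *Peg3*, *Mest* and *Plagl1* (25% of all windows). None of the 5 held GCCATNTT, which was in 6.05% of all windows. These matches describe letters in a window and were not tested for binding.

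At day 7, 5 of the 7 members with enough counts to be tested rose (*Zim1*, *Peg3*, *Meg3*, *Cdkn1c* and *Mest*), 1 fell (*Plagl1*) and *Ndn* did not pass. Among all genes tested, 8.86% were higher and 9.7% lower at day 7. Of the 5 that rose, all but *Meg3* were DEGs, as were 3.82% of all genes in that direction. *H19*, *Igf2* and *Dlk1* did not reach the minimum count and were not in this test. *Zim1* reached it through the injured mice, in which it was higher. The 5 that rose and the medians given below therefore include a gene that the filter kept because of those mice. At day 14, *Meg3* and *Cdkn1c* were higher than at BL and no member was lower, against 1.05% and 0.525% of all genes. *Cdkn1c* was a DEG at day 14, as were 0.697% of all genes in that direction. The median log2 fold change of the 7 members was 0.66 at day 7 and 0.45 at day 14, beside 0.02 and 0.01 over all genes tested. How many of all genes separate the time points mouse by mouse was not counted. The numbers of mice above or below every mouse of another time point are thus a description, and not a trait of these genes.

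**Figure D1:**
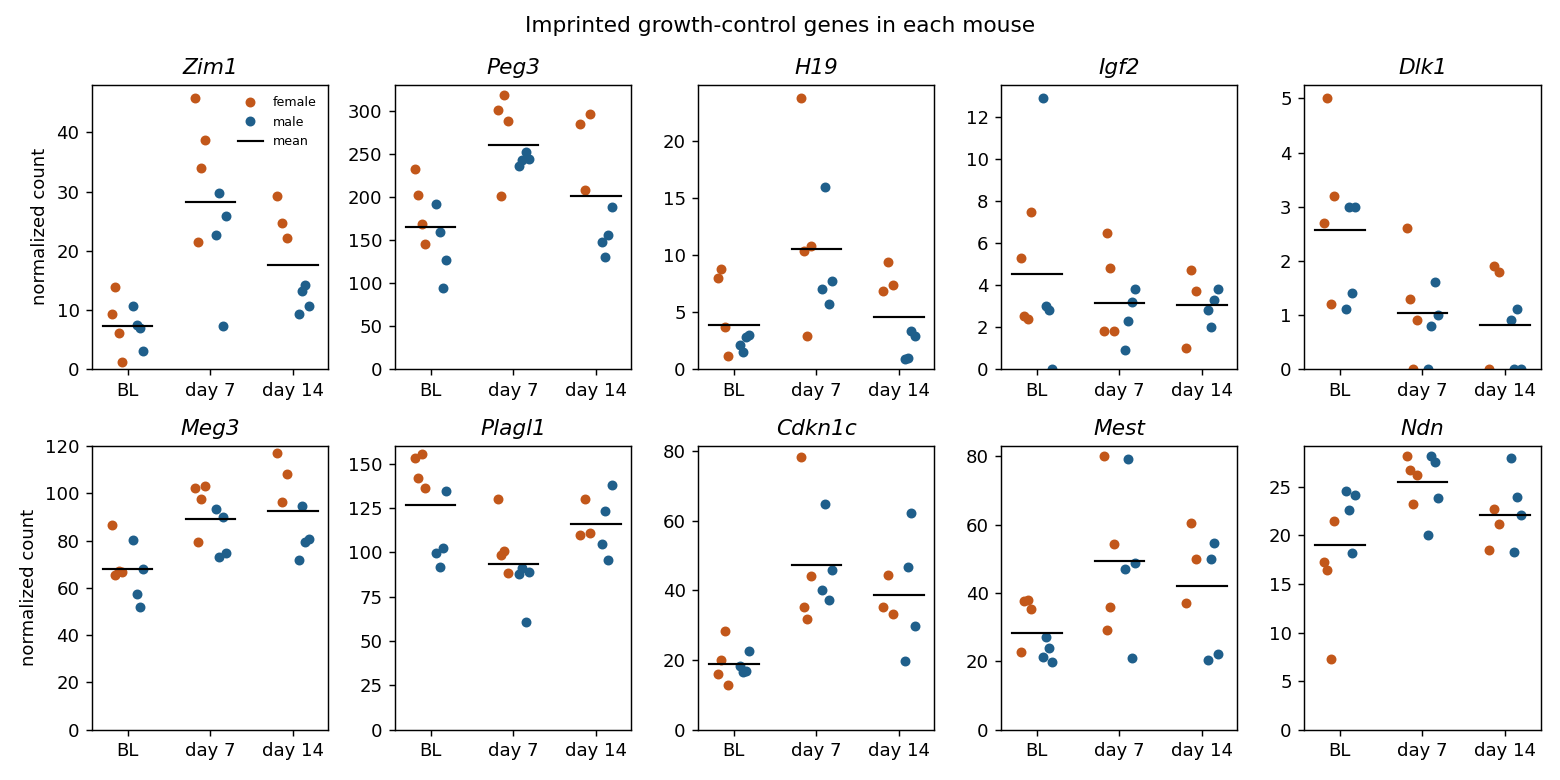
Normalized counts (vertical axis, each panel from 0) of the 10 genes in each mouse at baseline (BL), day 7 and day 14. Points are mice, females in orange and males in blue, and bars are the means of all mice of a time point. All 8 day 7 mice were above the highest BL mouse for Cdkn1c, and 7 of 8 were for Zim1 and for Peg3. The share of all genes with such a separation was not counted.

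*Zim1* had the largest fold change of the set. At BL its lowest, median and highest values were 1.07, 7.28 and 13.8 normalized counts, at day 7 they were 7.3, 27.8 and 45.8, and at day 14 they were 9.34, 14.2 and 29.2. At day 7, 7 of 8 mice were above every BL mouse, and male 15, with 7.3, was the exception. The rise at day 7 was 3.71-fold (log2 fold change 1.89 ± 0.32 SE, adjusted p = 0.000151). At day 14 it was 2.36-fold (1.24 ± 0.34) and missed the threshold (adjusted p = 0.0589), with 4 of 7 mice above every BL mouse. The raw counts behind these values were small, from 1 to 11 per mouse at BL and from 9 to 52 at day 7. Most BL mice were under the minimum of the count filter, so that *Zim1* entered the test through the injured mice. Without that filter the day 7 value was 1.90 (adjusted p = 0.000187).

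*Peg3* was the most abundant of the 10 genes in counts. Its lowest, median and highest values were 94, 164 and 233 normalized counts at BL, 201, 248 and 319 at day 7, and 130, 188 and 297 at day 14. The day 7 mice again stood above every BL mouse in 7 of 8 cases, with female 10 inside the BL range. The day 7 rise was 1.59-fold (log2 0.66 ± 0.14 SE, adjusted p = 0.00181). At day 14 the value was 0.30 ± 0.15 (adjusted p = 0.39), and 4 of 7 mice were below every day 7 mouse.

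*Plagl1*, also called Zac1, encodes a zinc-finger regulator that can halt the cell cycle, and it was the only member tested that was lower after injury. It had 92, 135 and 156 normalized counts as lowest, median and highest at BL, 60.8, 90.2 and 130 at day 7, and 96, 111 and 138 at day 14. At day 7, 5 of 8 mice were below every BL mouse. The log2 fold change was −0.44 ± 0.11 SE at day 7 (adjusted p = 0.00499), below the 1.5-fold of a DEG, and −0.09 ± 0.11 at day 14 (adjusted p = 0.81). This call depended on the scaling. When the counts were divided by the library totals, the median of all genes at day 7 moved to 0.48 and *Plagl1* stood at 0.01 (adjusted p = 0.936), 0.47 below that median.

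*Cdkn1c*, which encodes the cell cycle inhibitor p57, was the member whose day 7 mice were all above BL, which is given as a description. Its lowest, median and highest values were 12.9, 17.5 and 28.2 normalized counts at BL, 31.9, 42.1 and 78.3 at day 7, and 19.6, 35.1 and 62.2 at day 14. At day 14, 6 of 7 mice were still above every BL mouse, and male 21 was within the BL range. The gene rose 2.49-fold at day 7 (log2 1.32 ± 0.22 SE, adjusted p = 0.000164) and 2.03-fold at day 14 (1.02 ± 0.23, adjusted p = 0.0181). It lies on chromosome 7 (chr7:143458339-143461050). In GENCODE vM21, 30.7% of its exon bases are also exon of Gm44732 on the opposite strand, and the strand setting of the counting is not given in the sources used here.

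*Meg3*, a maternally expressed long non-coding RNA, changed less but was higher at both times. Its lowest, median and highest values were 51.9, 66.9 and 86.7 normalized counts at BL, 73.1, 91.6 and 103 at day 7, and 71.9, 94.7 and 117 at day 14. The groups overlapped, with 5 of 8 mice at day 7 and 4 of 7 at day 14 above every BL mouse. The log2 fold changes were 0.39 ± 0.10 SE (adjusted p = 0.0077) and 0.45 ± 0.10 (adjusted p = 0.0199), both under 1.5-fold. *Rian*, the next long non-coding RNA 32.2 kb downstream on the same strand and a host of small nucleolar RNAs, rose 2.01-fold at day 7 (log2 1.01 ± 0.13, adjusted p = 8.17e-06). It fell by 0.55 ± 0.13 from day 7 to day 14 (adjusted p = 0.0307), while *Meg3* differed by 0.07 ± 0.10 between these times (adjusted p = 0.797). The day 14 call of *Meg3* was lost in 4 of the 23 fits that left out 1 mouse (without BL mouse 2 or 7, or day 14 mouse 17 or 19), with adjusted p from 0.00512 to 0.0628 over these fits.

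*Mest*, also called Peg1, encodes a membrane-bound protein of the hydrolase family and is a paternally expressed fetal growth gene. It had 19.7, 25.5 and 38 normalized counts as lowest, median and highest at BL, 21.1, 47.9 and 80.1 at day 7, and 20.5, 49.9 and 60.5 at day 14. The day 7 mice were spread widely, with 5 of 8 above every BL mouse and 3 inside the BL range. The log2 fold change was 0.82 ± 0.27 SE at day 7 (adjusted p = 0.0327) and 0.59 ± 0.28 at day 14 (adjusted p = 0.361). The day 7 call was lost without BL mouse 1, 5, 7 or 8 or day 7 mouse 9 or 14 (adjusted p up to 0.0745), and without the count filter (adjusted p = 0.0539). *Copg2* on the opposite strand shares 23.1% of the exon bases of *Mest*, and it stood at −0.14 ± 0.07 at day 7 (adjusted p = 0.155).

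*Ndn* encodes necdin, a growth-suppressing protein of neurons, and has no intron. It had 7.35, 19.8 and 24.6 normalized counts as lowest, median and highest at BL, 20, 26.4 and 28.2 at day 7, and 18.3, 22.1 and 28 at day 14. At day 7, 5 of 8 mice were above every BL mouse, but the value of 0.43 ± 0.17 did not pass (adjusted p = 0.0778). It passed under division by library totals (0.89, adjusted p = 0.000245, with the median of all genes at 0.48) and by totals without the 20 most abundant genes (0.51, adjusted p = 0.0421, median 0.10). At day 14 it was 0.21 ± 0.18 (adjusted p = 0.682).

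**Figure D2:**
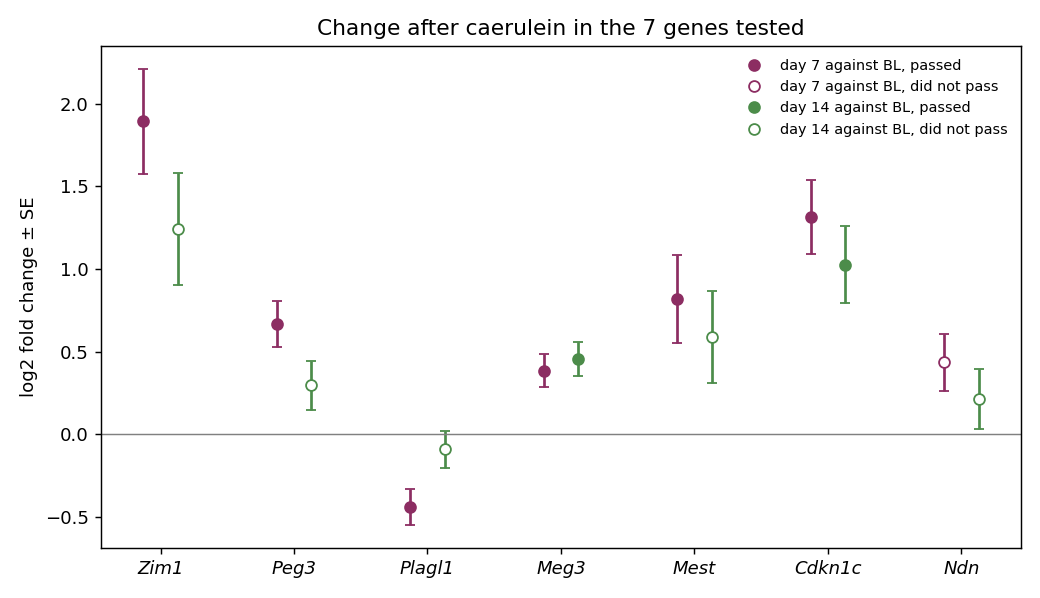
Log2 fold changes (vertical axis) of the 7 members tested at day 7 (purple) and day 14 (green) against BL, with bars of ± SE; filled points passed at an adjusted p of at most 0.05. Zim1 and Cdkn1c are highest at both times, and Plagl1 is the gene below 0.

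*H19*, *Igf2* and *Dlk1* had few counts. *H19* was under 3 counts in 5 of 8 BL mice and in no day 7 mouse. *H19* is a maternally expressed non-coding RNA that shares an imprinting control region with *Igf2*, 72.6 kb away (H19 at chr7:142575529-142578143, Igf2 at chr7:142650766-142666816). *H19* had 1 to 7 raw counts per mouse at BL, 3 to 27 at day 7 and 1 to 10 at day 14, with means of 3.88, 10.5 and 4.54 normalized counts. When the count filter was dropped, *H19* was higher at day 7 (log2 1.53 ± 0.42 SE, adjusted p = 0.0165) and stood at 0.25 ± 0.47 at day 14 (adjusted p = 0.926). *Igf2*, the fetal insulin-like growth factor, had 0 to 12 raw counts at BL, 1 to 10 at day 7 and 1 to 5 at day 14. Without the filter it stood at −0.57 ± 0.48 at day 7 (adjusted p = 0.497). *Dlk1*, a marker of fetal and progenitor cells on chromosome 12 (chr12:109452823-109463336), had no more than 5.03 normalized counts in any mouse and stood at −1.20 ± 0.59 at day 7 (adjusted p = 0.212). For *Igf2* and *Dlk1* no change was detectable at this depth. In GENCODE vM21, 64.5% of the exon bases of *Igf2* are shared with Gm49394 on the same strand or Igf2os on the opposite strand, so that its count can also depend on how shared fragments were assigned. Of 10 microRNA genes inside these regions that were counted, such as *Mir675* within *H19*, *Mir335* within *Mest* and *Mir770* within *Meg3*, every mean was under 1 normalized count, and libraries of total RNA do not measure mature microRNAs.

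Levels were compared between genes only per kilobase of exon, with the exons of all GENCODE vM21 transcripts of a gene joined. At BL, *Plagl1* had the highest mean level (16.2 ± 3.23 normalized counts per kb, SD, n = 8), followed by *Peg3* (12.4 ± 3.32), *Cdkn1c* (9.29 ± 2.32), *Mest* (7.16 ± 1.93), *Ndn* (5.15 ± 1.53) and *Meg3* (3.76 ± 0.62). *H19* (1.58 ± 1.19), *Zim1* (0.91 ± 0.51), *Igf2* (0.80 ± 0.70) and *Dlk1* (0.46 ± 0.23) came last. Within this order only *Meg3* and *H19* were neighbours whose ranges of mean ± SD lay apart. At day 7 *Cdkn1c* led with 23.1 ± 7.89, *Peg3* had 19.6 ± 2.94, *Mest* 12.5 ± 5.46 and *Plagl1* 11.9 ± 2.45. There the neighbours that lay apart were *Plagl1* and *Ndn* (6.90 ± 0.78), *Ndn* and *Meg3* (4.93 ± 0.66), and *Zim1* (3.48 ± 1.46) and *Igf2* (0.55 ± 0.33). At day 14 *Cdkn1c* was again first, with 19 ± 6.75, and its range overlapped those of *Peg3* (15.1 ± 4.99) and *Plagl1* (14.9 ± 1.91).

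**Figure D3:**
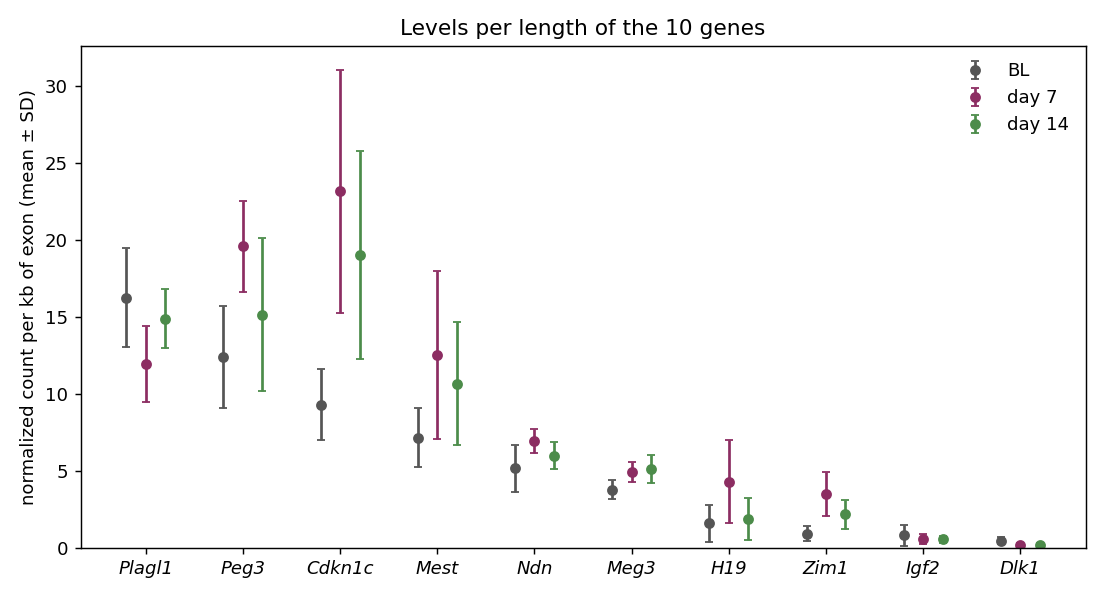
Normalized counts per kb of exon (vertical axis, from 0) of the 10 genes, in the order of their BL means; points are means of 8 mice (BL, day 7) or 7 mice (day 14) and bars are SD. Cdkn1c moves from the third place at BL to the first at day 7 and day 14, while H19, Zim1, Igf2 and Dlk1 hold the last 4 places throughout.

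Between day 7 and day 14, none of the 7 members passed in edgeR, beside 1.29% of all genes. At an unadjusted p under 0.05 there were 3, and DESeq2 called 0, although it gave no adjusted p for 4 of the 7. For that unadjusted threshold the share of all genes is not given here, so the 3 cannot be set against it. The largest differences were −0.65 ± 0.29 for *Zim1* (adjusted p = 0.294), −0.37 ± 0.14 for *Peg3* (adjusted p = 0.215) and 0.35 ± 0.11 for *Plagl1* (adjusted p = 0.113). When counts were divided by the library totals, *Zim1* and *Peg3* were lower at day 14 than at day 7 (adjusted p = 0.0227 and 0.0032), with the median of all genes at −0.26. The comparisons with BL share the same 8 mice, and so do the comparisons with day 7.

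No member passed between males and females over all time points in edgeR, where 0.574% of all genes did. At an unadjusted p under 0.05 there were 4 of 7 members, all lower in males: *Peg3* by 0.42 ± 0.12 on the log2 scale (adjusted p = 0.129), *Plagl1* by 0.28 ± 0.09 (adjusted p = 0.215), *Meg3* by 0.24 ± 0.08 (adjusted p = 0.262) and *Zim1* by 0.68 ± 0.25 (adjusted p = 0.336). The share of all genes at that unadjusted threshold is not given here, so the 4 cannot be set against it and are no result about the set. DESeq2 called 1 member, *Peg3*, and edgeR also called it without day 7 mouse 10 (adjusted p = 0.0301). In a fit with 6 groups of sex and time, which also held *H19*, the change with injury differed between the sexes for 0 of 8 members at day 7 and 0 of 8 at day 14, with 0 at an unadjusted p under 0.05 at either time. Over all 12933 genes of that fit the shares were 0.00773% and 0%. The day 7 change of *Zim1* was 2.20 ± 0.45 in females and 1.54 ± 0.46 in males, and both passed (adjusted p = 0.00589 and 0.0373). That of *Cdkn1c* was 1.29 ± 0.33 in females and 1.33 ± 0.33 in males (adjusted p = 0.0244 and 0.0145). Within 1 sex, *Peg3* passed at day 7 in males (adjusted p = 0.0146) and missed in females (0.078), and *Plagl1* passed in females (adjusted p = 0.0487) and missed in males (0.13). *Meg3*, *Mest*, *Ndn* and *H19* passed in neither sex at day 7, with adjusted p from 0.0691 to 0.787. At day 14 no member passed within 1 sex. There *Cdkn1c* had an adjusted p of 0.34 in females and 0.288 in males, and *Meg3* 0.122 and 0.558. The shares of all genes that passed within 1 sex are not given here, so these calls cannot be set against them.

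Cell type markers moved with the time points. All 8 fibroblast markers rose at day 7 and 3 at day 14, and their summed level per mouse was 2278 to 4476 normalized counts at BL, 4416 to 8584 at day 7 and 3463 to 5293 at day 14. Of 11 islet markers, 6 rose at day 7 and 0 at day 14 in edgeR (1 in DESeq2), and their sum was 888 to 3702 at BL, 2574 to 7572 at day 7 and 2935 to 5623 at day 14. All 9 acinar markers fell at day 7 and 5 at day 14. Of 8 macrophage markers, 7 rose at day 7. Several of these markers, such as *Col3a1*, *Ins1*, *Sycn* and *C1qa*, had been listed by the authors as changed at day 7 in these mice. The numbers of fibroblast, islet, acinar and macrophage markers that rose or fell are therefore not independent of that earlier result. Among the markers tested at day 7, 2 of 6 for duct, 2 of 5 for proliferation and 1 of 3 for Schwann cells rose, and 1 of 6 for endothelium and 1 of 6 for pericytes and smooth muscle fell. Of 5 lymphocyte, 4 mesothelial and 5 adipocyte markers 0 passed at day 7 in edgeR or in DESeq2, and 0 had an unadjusted p under 0.05 (DESeq2 gave no adjusted p for 2 of the lymphocyte markers). At day 14 against BL 0 of the 4 mesothelial markers passed in edgeR or in DESeq2, with 3 at an unadjusted p under 0.05 and a median log2 fold change of −0.84. The share of all genes at that unadjusted threshold is not given here, so the 3 cannot be set against it. The enterocyte markers were too low to be tested, although *Fabp1* reached 157 normalized counts in day 14 mouse 19, one of the 4 mice without which the day 14 call of *Meg3* was lost. No fibroblast, islet, acinar or macrophage marker was at 0 in all mice. In whole tissue, fewer cells of a type and less RNA per cell cannot be told apart.

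Within time points, the level of *Peg3* followed that of the islet markers. The relation was taken over the deviations of 23 mice from the means of their time points, and 14 relations of 7 members with 2 marker scores (mean log2 CPM) were examined. For *Peg3* and the islet score Pearson's r was 0.664 (permutation p = 0.00087, adjusted p = 0.0122) and Spearman's rho 0.736 (permutation p = 0.00018, adjusted p = 0.00252), and r was 0.799 without the 2 mice farthest from the median score. *Mest* followed the fibroblast score (r = 0.525, permutation p = 0.00595, adjusted p = 0.0416; rho = 0.583, permutation p = 0.00439, adjusted p = 0.0307), with r = 0.493 without 2 mice. The other 12 relations did not pass. For *Zim1* r was 0.119 with the fibroblast score and 0.375 with the islet score, and for *Cdkn1c* it was 0.245 and −0.102.

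**Figure D4:**
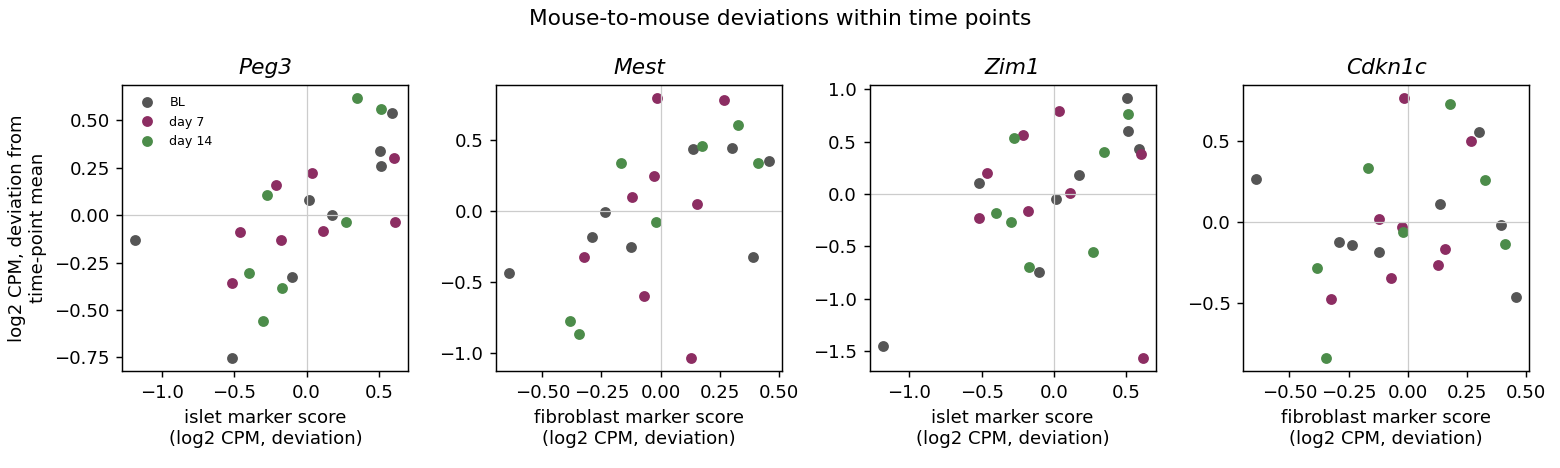
Deviation of each mouse from the mean of its time point, for the mean log2 CPM of islet or fibroblast markers (horizontal axes) and the log2 CPM of 4 members (vertical axes); points are 23 mice, coloured by time point. Peg3 with the islet markers (r = 0.664) and Mest with the fibroblast markers (r = 0.525) passed, while the panels of Zim1 (r = 0.375) and Cdkn1c (r = 0.245) show relations that did not.

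The day 7 fit was repeated with each marker score as a further covariate. With the islet score, *Zim1* stood at 1.58 ± 0.40 (adjusted p = 0.0115), *Cdkn1c* at 1.49 ± 0.29 (adjusted p = 0.0021) and *Mest* at 1.25 ± 0.33 (adjusted p = 0.0175), while *Peg3* stood at 0.24 ± 0.12 (adjusted p = 0.219) and *Meg3* at 0.19 ± 0.12 (adjusted p = 0.352). With the fibroblast score no member passed. *Zim1* stood at 1.67 ± 0.58 (adjusted p = 0.207), *Cdkn1c* at 0.83 ± 0.41 (adjusted p = 0.383) and *Mest* at −0.16 ± 0.44 (adjusted p = 0.946). The fibroblast score separated BL from day 7 (3.7 to 4.8 against 5.03 to 5.62 in mean log2 CPM), standard errors were larger in that fit, and over all genes 57 passed in it, against 2264 without the score. The part of other cell types in the changes of these genes was not tested beyond these values.

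The genes whose deviations within time points were most like those of a member are given as a description. For *Peg3* they were *Prlr*, the prolactin receptor (Pearson's r over 23 mice, 0.839), *Tm4sf4* (0.817) and *Rian* (0.814). For *Meg3* the first was *Peg3* (0.744). *Cdkn1c* and *Mest* shared *Adamts16*, a secreted protease, as the first gene (0.743 and 0.793), and *Mest* was the third for *Cdkn1c* (0.712). For *Mest* the second was *Smoc2*, a matrix protein (0.746). *Wdr72* (0.809) and *Cers6* (0.805) were first for *Plagl1*, and *Phf20* (0.781) for *Ndn*. These values come from a search through all genes tested, among libraries that share depth and composition.

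Between neighbours on the chromosome, the same relation was examined within each time point for 3 pairs, 9 relations in all, with exact permutation tests. None passed after adjustment. For *Zim1* and *Peg3*, r was 0.479 at BL (exact p = 0.229), 0.475 at day 7 (exact p = 0.239) and 0.787 at day 14 (exact p = 0.049, adjusted p = 0.441), and rho was 0.714, 0.667 and 0.714. Without the 2 mice farthest from the median of *Zim1*, r was 0.56, 0.869 and 0.729. For *H19* and *Igf2*, r lay between −0.367 and 0.203, and for *Dlk1* and *Meg3* between −0.0521 and 0.026. Counts per mouse were few for *H19*, *Igf2* and *Dlk1*, and for *Zim1* at BL.

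Among 65 other imprinted genes listed, 35 were tested. At day 7, 7 of these rose (20%) and 7 fell (20%), with a median log2 fold change of 0.05. 2 of those that fell, *Snrpn* and *Snurf*, are parts of 1 locus and had identical counts in 22 of 23 mice, so they stand for 1 signal. Of the other genes of the growth network, *Dcn*, which encodes the matrix protein decorin and is also among the fibroblast genes of the pancreas, rose (0.78 ± 0.14, adjusted p = 0.000481). *Igf2r*, the receptor that clears Igf2, fell by 0.31 ± 0.06 (adjusted p = 0.000392). *Gatm*, an enzyme of creatine synthesis abundant in acinar cells, fell by 0.33 ± 0.08 (adjusted p = 0.00507), and *Gnas*, the stimulatory G protein, by 0.27 ± 0.07 (adjusted p = 0.00489). The direction of *Igf2r*, *Gatm* and *Gnas* flipped under division by library totals (0.14, 0.12 and 0.18), where the median of all genes was 0.48.

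In the chromosomal regions of the members, *Rian*, *Ins2* (insulin, 0.97 ± 0.26, adjusted p = 0.0132), *Atp10a* (0.66 ± 0.17, adjusted p = 0.0062) and *Ube3a* (0.20 ± 0.06, adjusted p = 0.0237) rose at day 7. *Snrpn* fell by 0.58 ± 0.08 (adjusted p = 2.31e-05), a call that was lost under division by library totals (−0.13, adjusted p = 0.0849). Elsewhere, *Slc38a4*, an amino acid transporter of fetal liver and placenta, was higher at day 7 (1.05 ± 0.19, adjusted p = 0.000328) and at day 14 (1.07 ± 0.20, adjusted p = 0.00264). *Plxdc2* was also higher at both times (0.84 ± 0.11, adjusted p = 3.82e-06, and 0.46 ± 0.11, adjusted p = 0.0296). *Peg13* and *Inpp5f* fell by 0.34 ± 0.11 (adjusted p = 0.0327) and 0.27 ± 0.08 (adjusted p = 0.0126), and both turned to positive values under division by library totals (0.10 and 0.18). At day 14 *Slc38a4* and *Plxdc2* were the ones of the 35 that passed (5.71%), and between day 14 and day 7 it was *Rian* alone (2.86%) in edgeR. *Plxdc2* was lower in males, by 0.53 ± 0.09 (adjusted p = 0.00133).

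**Figure D5:**
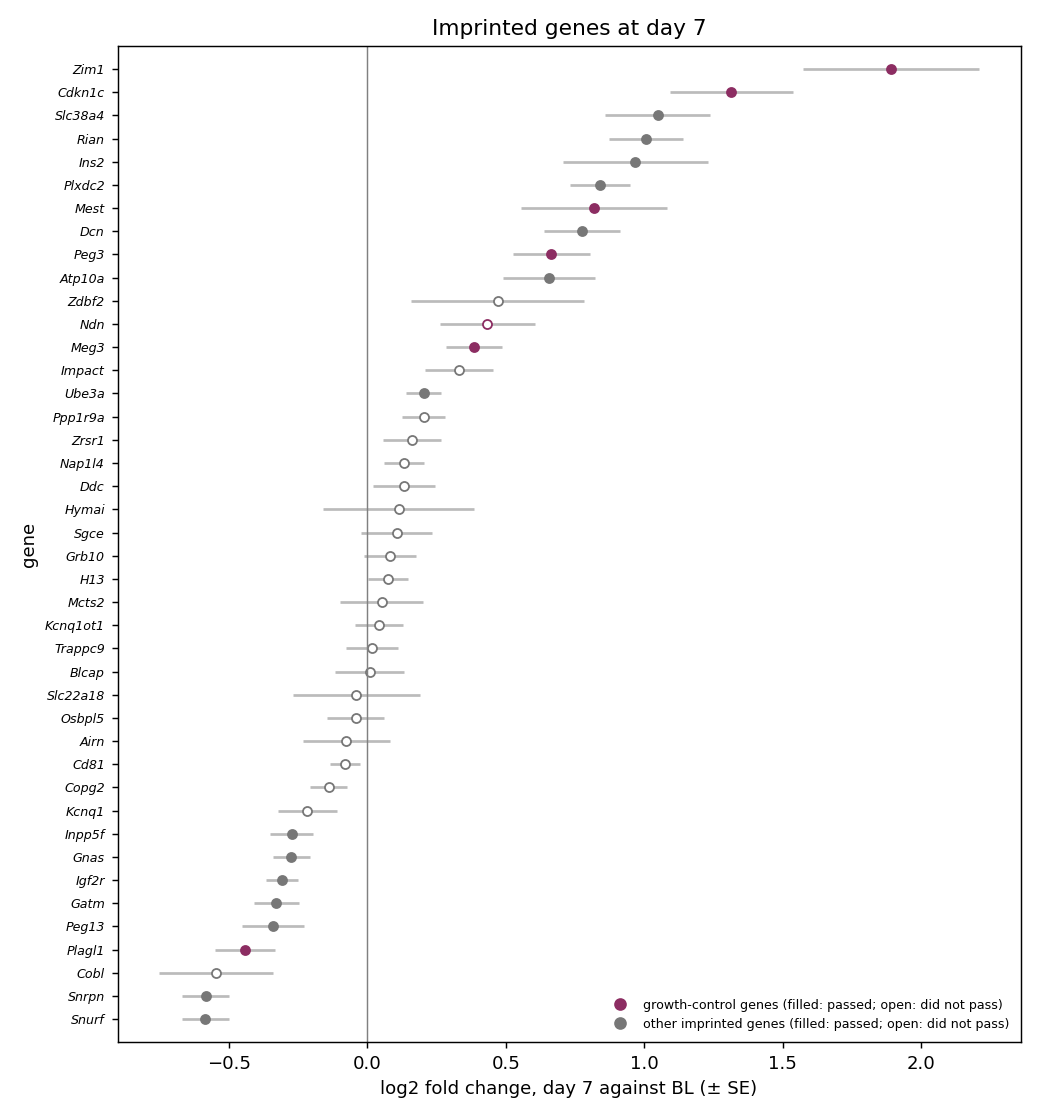
Log2 fold change at day 7 against BL (horizontal axis, bars are ± SE) of the 7 members tested (purple) and 35 other imprinted genes (grey); filled points passed. Zim1 at 1.89 and Cdkn1c at 1.32 are the highest of the 42, and Plagl1 at −0.44 is among the lowest.

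Insulin-like growth factors act through cell surface receptors and their adaptors, and binding proteins hold them in the blood and tissue. A list of 16 genes held *Igf1*, receptors, adaptors, binding proteins and the RNA-binding proteins named for *Igf2* mRNA. Of these, 11 were tested, and at day 7 none rose and 1 fell in edgeR, *Igfals* (by 0.53 ± 0.14, adjusted p = 0.00903), with 6 at an unadjusted p under 0.05. DESeq2 called 2 higher and 2 lower, where it called 2299 over all genes. As the share of all genes at the unadjusted threshold is not given here, counts at that threshold cannot be set against it. This holds for both times. *Igf1*, the growth factor of the adult, stood at 0.06 ± 0.07 (adjusted p = 0.617), and its receptor *Igf1r* at −0.09 ± 0.07 (adjusted p = 0.436). Of the other CDK inhibitors, 4 of 6 were tested. *Cdkn2c*, which encodes p18, rose at day 7 (1.17 ± 0.19, adjusted p = 9.88e-05), and so did *Cdkn1b*, which encodes p27 (0.40 ± 0.10, adjusted p = 0.00397). *Cdkn1a*, which encodes p21, stood at −0.33 ± 0.24 (adjusted p = 0.362) and *Cdkn2d* at 0.20 ± 0.31 (adjusted p = 0.692). At day 14 neither the IGF list nor the CDK inhibitors had a gene that passed in edgeR or in DESeq2, with 1 gene in each at an unadjusted p under 0.05.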

How the data were processed

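Stranded libraries of RNA depleted of ribosomal RNA had been made from the pancreas head in 23 mice and read as pairs. The authors examined reads with FastQC, trimmed them with Trim Galore and cutadapt, aligned them to mm10 with STAR 2.5.2a and counted uniquely mapped fragments with featureCounts; the deposited values are these counts per gene symbol, unscaled. The annotation and strand setting of the counting are not given in the sources used here. Mouse 20 was not analysed here.

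TMM scaling and the edgeR 4.0.16 test (filterByExpr by time point, robust quasi-likelihood fit, R 4.3.3) were applied to all 23 mice in 1 fit, with sex as a covariate and Benjamini-Hochberg adjustment over 12195 genes. Tests were two-sided and were tested on simulated data. The SE is the size of the log2 fold change over the root of its F statistic. Log2 CPM had a prior count of 2. Permutation tests used 100000 resamples within time points, or all pairings within a time point; the smallest p that the resamples can give is 1e-05. Sequences came from RefSeq (8 of the 10 genes matched, with 14 windows), and gene positions from GENCODE vM21 on GRCm38, the same build as mm10.

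Alternatives were DESeq2 1.42.0, its size factors in edgeR, total count scaling with and without the 20 most abundant genes, no count filter, at least 10 counts in every mouse, only the mice compared, no sex covariate, leaving out each mouse, and a prior count of 0.5. The marker scores as covariates were added after seeing the data. The genes and lists were chosen with earlier results of these data known. Genes named from other lists were, per comparison, up to 4 that passed with the largest change, or else the 2 most abundant. The like genes were the 3 of highest r for members with a mean of at least 20 normalized counts. Genes named in addition included *Copg2*, *Ube3a*, *Igf1*, *Igf1r*, *Cdkn1a* and *Cdkn2d*. Labels do not say whether mice shared a litter or a cage. No extraction or sequencing batch is given in the labels, so values within batches cannot be given. The library statistics listed by the authors differed between time points. Duplicate rates were higher in every BL library than in any day 7 library, and mapping rates were lower in most BL libraries than at day 7. The share of reads in untranslated exon sequence before the coding part was lower in every day 14 library used than in any BL or day 7 library. The part of these differences in the results was not tested.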

Additional observations from a re-analysis of the deposited data

How the results depend on the processing

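The rises of *Zim1*, *Peg3*, *Meg3* and *Cdkn1c* at day 7 kept their direction and passed in every scaling, filter and left-out mouse in which they were tested, but not with marker scores as covariates, where all 4 missed the threshold with the fibroblast score and *Peg3* and *Meg3* with the islet score. The number of members passing at day 7 was 6, and 5 to 6 without 1 mouse. It was 7 when the totals left out the 20 most abundant genes, where *Ndn* passed in addition, and 6 under total count scaling, where *Ndn* passed and *Plagl1* did not. It was 0 with the fibroblast score and 3 with the islet score as a covariate. In these settings *Mest* turned to −0.158 with the fibroblast score, and *Plagl1* to 0.00993 under total count scaling. At day 14, 2 members passed: 5 did under total count scaling, 1 without the sex covariate, 1 when a 1.5-fold change was also asked for, 1 to 3 without 1 mouse, 0 with the fibroblast score and 1 with the islet score. *Zim1* was the member called in addition at day 14 by DESeq2 (adjusted p = 0.0254) and when the totals left out the 20 most abundant genes (adjusted p = 0.0497). In the edgeR fits without 1 mouse its adjusted p was 0.0287 to 0.144, and it passed without BL mouse 5 or day 7 mouse 10 or 15. Between day 14 and day 7, 0 passed: 2 did under total count scaling, and 0 to 1 without 1 mouse (*Plagl1* without day 7 mouse 9, adjusted p = 0.0462). Between the sexes 0 passed: 1 did in DESeq2, under total count scaling and with the islet score, and 0 to 1 without 1 mouse. The cause of these shifts was not tested. Over all genes, 9336 of the 12195 tested passed at day 7 under total count scaling, against 2264 in the main fit. At day 14 it was 3034 against 192, between day 14 and day 7 4107 against 157, and between the sexes 127 against 70. When the totals left out the 20 most abundant genes 2653 passed at day 7, and with the islet score 1138 did. *Zim1* and *Ndn* could not be fitted under the minimum of 10 counts in every mouse. When only the BL and day 14 mice were fitted, *Zim1* was not kept by the count filter, so its day 14 test relied on the day 7 mice being in the fit. The relations with neighbours and marker scores kept their calls with a prior count of 0.5, and those with marker scores under total count scaling. No paired analysis was possible because every mouse has its own number, so that the groups share none. Depth limits *H19*, *Igf2* and *Dlk1*, with 0 to 27 counts per mouse.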

Other observations

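Within day 14, the 3 females and 4 males did not overlap for several members, a pattern noticed in the values and not tested. How many of all genes separate the sexes in this way was not counted. With so few mice the separation is thus given as a description only, and not as a trait of these genes. *Zim1* was at 22.2 to 29.2 normalized counts in females and 9.34 to 14.2 in males. *Peg3* was at 208 to 297 in females and 130 to 188 in males. *Meg3* was at 96.4 to 117 in females and 71.9 to 94.7 in males. *H19* was at 6.82 to 9.45 in females and 0.93 to 3.27 in males, which is 1 to 3 raw counts. At BL the ranges of the sexes overlapped for all of these genes, with *Zim1* at 1.07 to 13.8 in females and 3.03 to 10.7 in males. For *Plagl1* it was the BL mice whose sexes did not overlap, at 136 to 156 in females and 92 to 135 in males. In the fit with 6 groups of sex and time, the difference between the sexes in the change from BL to day 14 was −1.06 ± 0.69 on the log2 scale for *Zim1* and −0.39 ± 0.27 for *Peg3* (males minus females, adjusted p = 1 for both), which missed the threshold. The sexes overlapped at day 14 for *Cdkn1c*, *Mest*, *Plagl1* and *Ndn*, as with *Cdkn1c* at 33.3 to 44.4 in females and 19.6 to 62.2 in males.

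Male 15 at day 7 had 7.3 normalized counts of *Zim1*, beside 21.5 or more in the other day 7 mice, and it also had the lowest day 7 values of *Mest* (21.1) and *Plagl1* (60.8), while its *Peg3* (252) and *Meg3* (90) lay within the range of the others.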
